A study of Oryza sativa Indica Group and Oryza sativa Japonica Group with 12 samples.

Results

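Chromatin loops that carry the histone mark H3K27me3 were compared between wild-type seedlings of both cultivated rice subspecies. Seedlings of the indica cultivars Minghui 63 (MH63) and Zhenshan 97 (ZS97) were set against seedlings of the japonica cultivar Dongjin. These were 6 of the 12 samples of the series, 2 per cultivar, and the labels give seedling tissue, no treatment and no age. Each pair of samples was deposited as 1 pooled loop list, so the comparison rests on 3 of 6 lists. The other lists, from MH63 roots, ZS97 roots and osemf2b seedlings in the Dongjin background, are used as context only. The samples were grouped by their cultivar and tissue labels. The 3 lists held 86355, 90369 and 94432 loops for MH63, ZS97 and Dongjin seedlings once loops to unplaced sequence were left out.

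H3K27me3 is set by Polycomb repressive complex 2, which keeps developmental genes silent in plants and animals. In rice it covers genes whose expression is held back until a given tissue or season, flowering-time genes among them, and stretches of marked chromatin can lie close together in the nucleus even when they are far apart on the DNA. ChIA-PET measures this closeness: chromatin with the mark is enriched, DNA ends that lie near each other are ligated, and each ligation product is read as a paired-end tag (PET). A loop here is a pair of marked regions, called anchors, joined by at least 2 PETs and passing the authors' threshold. A single sequenced end at an anchor is a tag, and the tags measure how much enriched DNA an anchor gave.

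The MH63 and ZS97 lists use coordinates that differ from those of the Dongjin list, so no position was matched between the subspecies and no gene is named. All measures below need only the shape of a list: spans, widths, numbers of partners, loops per Mb, chromosome pairs, and positions as a percent of the chromosome. With 1 list per cultivar no spread between replicates can be had, and no test was made. Intervals cover counting error at 95% only. Beside each difference stand the gap between both indica seedling lists and, where it bears on the result, the range over the 4 indica lists with roots included. Subspecies, cultivar, library and coordinate system cannot be told apart in these lists.

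The lists differed in depth. They held 509458, 484003 and 818847 PETs in MH63, ZS97 and Dongjin, or 5.90, 5.36 and 8.67 PETs per loop. The total tags recovered from the deposited p-values were 22.1 M, 51.2 M and 39.4 M. An anchor held a median of 149, 555 and 259 tags per kb. The list with the most PETs was thus Dongjin, while the list with the densest tags was ZS97. Values thinned to the 484003 PETs of ZS97 are therefore given wherever they change the reading. Thinning acts on the PETs of listed loops and leaves the authors' threshold as it was, so it equalises those PETs, not library depth.

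Counted per pair of anchors, loops within chromosomes were denser in the japonica seedlings than in either indica seedling list. Of every 1000 pairs of anchors that share a chromosome, 6.12 were joined in MH63, 6.06 in ZS97 and 10.6 in Dongjin. The indica lists differed from each other by 0.0553 loops per 1000 pairs, and their mean lay 4.50 below Dongjin. The MH63 and ZS97 roots had 6.88 and 6.67 loops per 1000 pairs, so Dongjin lay outside all 4 indica lists. Thinned to equal PETs, the values were 5.97 in MH63, 6.06 in ZS97 and 8.34 in Dongjin, with the same order of the subspecies.

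The difference was widest at intermediate distances. For anchors 20 to 100 kb apart, 269 and 294 of 1000 pairs were joined in MH63 and ZS97, against 463 in Dongjin. From 100 kb to 1 Mb the values were 36.4 loops per 1000 pairs in MH63 (35.8 to 37.0), 26.8 in ZS97 (26.2 to 27.4) and 79.9 in Dongjin (78.8 to 80.9). At 1 to 5 Mb they were 3.31 and 2.54 in MH63 and ZS97, against 5.78 in Dongjin. Dongjin was the highest in each of these classes, also with roots included. MH63 and ZS97 roots had 431 and 332 loops per 1000 pairs at 20 to 100 kb. They had 43.4 and 38.4 from 100 kb to 1 Mb, and 1.69 and 3.22 at 1 to 5 Mb. At 20 kb or less the lists lay closer, with 254 and 263 loops per 1000 pairs in MH63 and ZS97, against 325 in Dongjin. MH63 roots had 339 and ZS97 roots 294, so in this class the indica lists with roots included span the Dongjin value. The shortest loops spanned 4.35 kb in MH63, 4.24 kb in ZS97 and 4.79 kb in Dongjin. This class also counts anchor pairs closer than that, so its values do not show that near pairs were joined less often. At 10 to 12.6 kb, 603 and 661 of 1000 pairs were joined in MH63 and ZS97, against 783 in Dongjin.

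Beyond 10 Mb the order was no longer one of subspecies. ZS97 had 1.60 loops per 1000 pairs over 10 Mb apart, above 1.27 in Dongjin, and MH63 had 0.927. These long pairs were close to the level for anchors on different chromosomes, which was 0.732 in MH63, 1.49 in ZS97 and 0.910 in Dongjin. Joining over 10 Mb was 1.27 times that level in MH63, 1.08 times in ZS97 and 1.39 times in Dongjin. In MH63 and ZS97 roots it was 1.03 and 1.12 times that level.

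**Figure D1:**
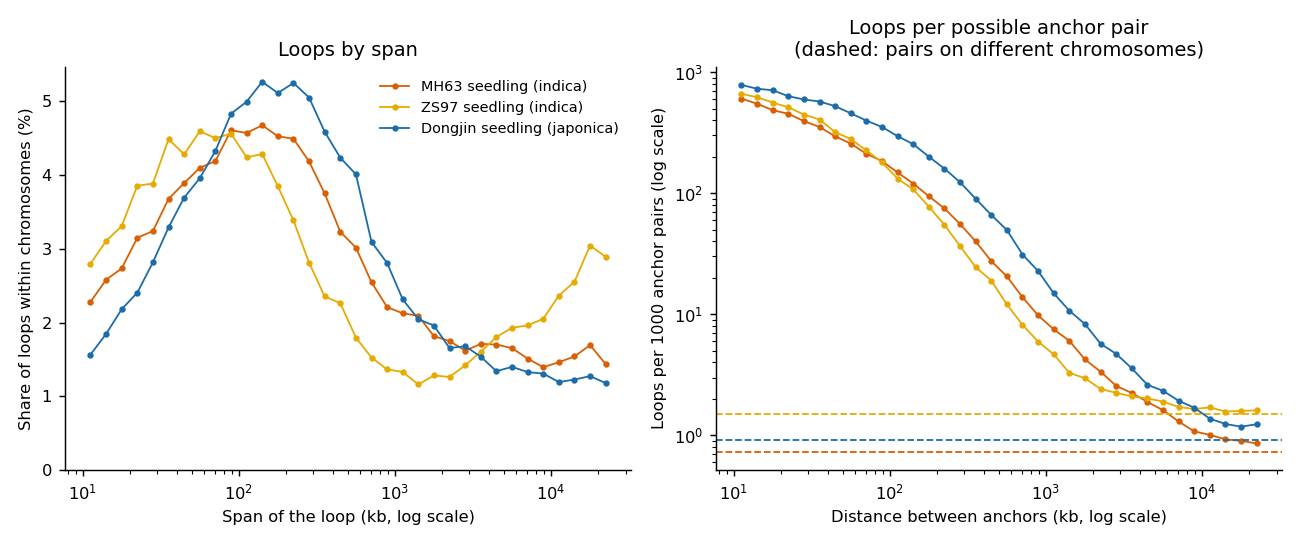
Left, share of loops within chromosomes (%) in each class of span (kb, log scale) for MH63, ZS97 and Dongjin seedlings, 1 pooled list each. Right, loops per 1000 possible anchor pairs (log scale) by distance (kb, log scale), with dashed lines for anchors on different chromosomes: the Dongjin curve runs above both indica curves at 100 kb to 1 Mb (79.9 against 36.4 in MH63 and 26.8 in ZS97), and the ZS97 curve flattens near its own dashed line of 1.49.

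The decay of loop number with span was steeper in the indica seedlings up to 1 Mb. On log10 axes the number of loops per bp of span fell with a slope of −1.08 ± 0.0124 in MH63, −1.30 ± 0.0171 in ZS97 and −0.947 ± 0.0106 in Dongjin (± is the 95% half-width of counting error) between 20 kb and 1 Mb. The slopes of MH63 and ZS97 roots were −1.34 and −1.17, so the Dongjin slope was the shallowest beside the 4 indica lists. MH63 lay 0.226 above ZS97, nearly as far as the indica mean lay from Dongjin (a difference of −0.242). From 1 Mb to 10 Mb the direction turned: the slopes were −1.17 ± 0.0366 in MH63, −0.716 ± 0.0472 in ZS97 and −1.28 ± 0.0329 in Dongjin.

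The median span was 181 kb in MH63 (176 to 185), 143 kb in ZS97 (138 to 147) and 212 kb in Dongjin (208 to 216). Of the loops within chromosomes, those from 100 kb to 1 Mb were 37.2% in MH63 and 27.9% in ZS97, against 44.4% in Dongjin. Loops over 1 Mb made up 24.6% of the loops within chromosomes in MH63 and 28.7% in ZS97, against 22.4% in Dongjin. The indica lists differed from each other by 4.03 percentage points and their mean from Dongjin by 4.28, and roots had 12.9% in MH63 and 24.4% in ZS97, so the indica lists with roots included span the Dongjin value. The order was not stable: at a common highest p-value MH63 had 19.1% and ZS97 28.7%, against 19.9% in Dongjin, and among the 5000 anchors with most tags MH63 had 26.6% and ZS97 22.6%, against 23.5% in Dongjin. With at least 3 PETs the shares were 17.4% in MH63 and 18.5% in ZS97, against 16.97% in Dongjin, where MH63 and Dongjin lay within counting error. The 75th percentile of span, over all listed loops within chromosomes, was 960 kb in MH63 and 1961 kb in ZS97, against 804 kb in Dongjin.

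Part of the shorter median span moved with how anchors were delimited. The Dongjin list held no neighbouring anchors closer than 977 bp, whereas the MH63 list had 1181 such gaps and the ZS97 list 826, the smallest of 1 and 2 bp. The osemf2b list, in the same coordinates as Dongjin, had 484 gaps under 977 bp, and the MH63 and ZS97 root lists had 824 and 812. With anchors under 977 bp apart joined in every list, the median span became 213 kb in MH63 and 171 kb in ZS97, against 212 kb in Dongjin. Thinned to equal PETs, the medians were 177 kb in MH63 and 143 kb in ZS97, against 183 kb in Dongjin. The median span of ZS97 thus stayed below Dongjin under both changes, that of MH63 came within counting error of it, and the difference in loops per anchor pair held for both indica lists. Joined anchors gave 6.77 and 6.63 loops per 1000 pairs within chromosomes in MH63 and ZS97, against 10.6 in Dongjin.

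Neighbourhoods were more closed in Dongjin. When an anchor has a pair of partners on its own chromosome, the partners may be joined to each other as well, which makes a closed triple. Closed triples made up 19.6% of all such triples in MH63 and 20.4% in ZS97, against 27.4% in Dongjin. The indica seedling lists lay within 0.743 percentage points of each other. The share was 36.9% in MH63 roots and 24.9% in ZS97 roots, so the range of the indica lists with roots included spans the Dongjin value.

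Loops between chromosomes took a larger part of the indica lists. They were 55.7% of loops in MH63 and 71.8% in ZS97, against 47.6% in Dongjin, and by PETs 25.4% in MH63 and 42.1% in ZS97, against 16.4% in Dongjin. The gap between MH63 and ZS97, 16.1 percentage points, was close to the gap between their mean and Dongjin, 16.2 points. The share was 49.1% and 62.3% in MH63 and ZS97 roots, so by loops the Dongjin share was below all 4 indica lists, by least against MH63 roots. By PETs the roots had 15.7% in MH63 and 32.6% in ZS97, so MH63 roots lay below the 16.4% of Dongjin. Thinned to equal PETs, the shares were 54.8% in MH63 and 71.8% in ZS97, against 38.1% in Dongjin.

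Per pair of anchors, the contacts between chromosomes did not separate the subspecies. The 1.49 joined pairs per 1000 in ZS97 lay above 0.910 in Dongjin, and the 0.732 in MH63 lay below. At equal PETs the values were 0.690 in MH63 and 1.49 in ZS97, against 0.487 in Dongjin, which puts both indica lists above. Among loops of at least 10 PETs, 558 in MH63 and 1629 in ZS97 joined different chromosomes, against 896 in Dongjin. Those strong loops between chromosomes were 7.28% of all loops of at least 10 PETs in MH63 and 22.6% in ZS97, against 6.61% in Dongjin. ZS97 thus stood apart from both other seedling lists compared. The share was 5.01% in MH63 roots and 5.45% in ZS97 roots, both below Dongjin, and 24.7% in osemf2b seedlings. The indica lists with roots included therefore span the Dongjin value, and the high share of ZS97 seedlings was absent from ZS97 roots. Most loops between chromosomes rested on 2 PETs: 69.4% in MH63 and 60.9% in ZS97, against 62.7% in Dongjin.

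Anchors were narrower in the indica seedlings. The median width was 1678 bp in MH63 (1640 to 1713) and 1674 bp in ZS97 (1638 to 1708), against 2414 bp in Dongjin (2346 to 2487). Both indica seedling lists lay within 4 bp of each other. The median was 2506 bp in MH63 roots and 2368 bp in ZS97 roots, which enclose the Dongjin value, and 1310 bp in osemf2b seedlings. With anchors under 977 bp apart joined, the seedling medians were 1812 bp in MH63 and 1761 bp in ZS97, against 2414 bp in Dongjin.

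The narrower median went with more small anchors and fewer of 5 to 20 kb. Anchors under 1 kb made up 29.2% in MH63 and 29.9% in ZS97, against 21.3% in Dongjin. Anchors of 5 to 20 kb made up 14.3% in MH63 and 14.98% in ZS97, against 23.3% in Dongjin. Domains of 20 kb or more were 1.98% and 1.90% of anchors in MH63 and ZS97, against 3.11% in Dongjin, or 237, 186 and 323 domains. The MH63, ZS97 and Dongjin lists had 11996, 9778 and 10393 anchors, which covered 11.2%, 9.19% and 12.7% of the length spanned by anchors.

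**Figure D2:**
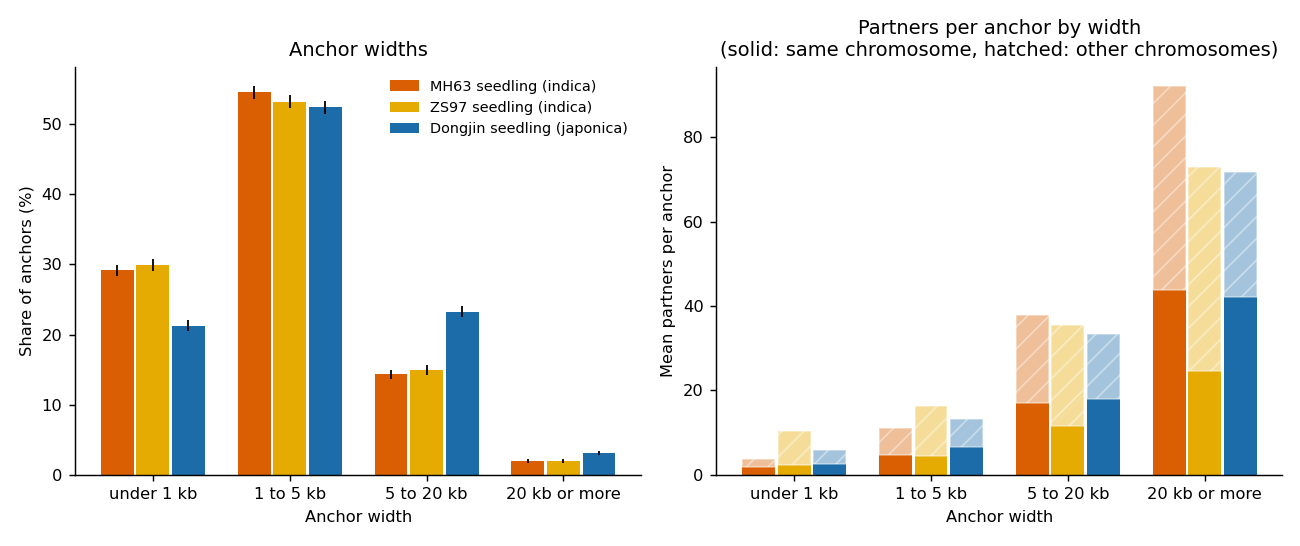
Left, share of anchors (%) in 4 classes of width for MH63, ZS97 and Dongjin seedlings, with 95% intervals of counting error; 5 to 20 kb anchors are 14.3% and 14.98% in the indica lists and 23.3% in Dongjin. Right, mean partners per anchor in the same classes, solid for partners on the same chromosome and hatched for other chromosomes: the hatched part is the larger one in MH63 and ZS97 at every width, and in Dongjin at widths under 5 kb.

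The number of partners per anchor did not follow the subspecies. Its mean was 14.4 in MH63 and 18.5 in ZS97, against 18.2 in Dongjin, and its median was 8 in MH63 and 15 in ZS97, against 13 in Dongjin. The gap of 4.09 partners between the indica lists was larger than the gap of 1.73 between their mean and Dongjin. The value depended on the number of PETs: thinned to equal PETs it was 13.7 in MH63 and 18.5 in ZS97, against 11.8 in Dongjin. Anchors with 1 partner made up 7.52% in MH63 and 0.757% in ZS97, against 1.76% in Dongjin, and 76, 18 and 35 anchors of MH63, ZS97 and Dongjin had 100 partners or more.

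What the partners were did differ. An anchor had on average 6.38 partners on its own chromosome in MH63 and 5.21 in ZS97, against 9.53 in Dongjin. Partners on other chromosomes averaged 8.01 in MH63 and 13.3 in ZS97, against 8.64 in Dongjin. Thinned to equal PETs, partners per anchor were 13.7 in MH63, 18.5 in ZS97 and 11.8 in Dongjin. Of the thinned loops, 54.8% in MH63, 71.8% in ZS97 and 38.1% in Dongjin joined different chromosomes. At equal PETs MH63 thus had more partners on other chromosomes than Dongjin, so that order changed with the number of PETs. As listed, anchors with no partner on their own chromosome made up 10.6% in MH63 and 7.96% in ZS97, against 4.21% in Dongjin.

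Wider anchors had more partners in every list. Anchors under 1 kb had a mean of 3.79 partners in MH63 and 10.4 in ZS97, against 5.85 in Dongjin. Domains of 20 kb or more had 92.2 in MH63 and 72.9 in ZS97, against 71.8 in Dongjin. On their own chromosome these domains had 43.7 partners in MH63 and 24.5 in ZS97, against 42.1 in Dongjin. At 5 to 20 kb the values were 16.9 and 11.5, against 18.1, and at 1 to 5 kb 4.71 and 4.41, against 6.58. Under 1 kb they were 1.79 and 2.28, against 2.67. The lower number of such partners in MH63 thus did not hold for the widest anchors. Across anchors, width and partners had a Spearman rho of 0.842 in MH63 and 0.747 in ZS97, against 0.868 in Dongjin, as a description over anchors that share a library. Tags per anchor and partners had a higher rho in each list, 0.924 in MH63 and 0.825 in ZS97, against 0.919 in Dongjin. The part of tag number in the partners, apart from width, was not tested. Anchors of 20 kb or more held 14233 tags at the median in MH63 and 34325 in ZS97, against 19077 in Dongjin. Of the loop ends on these domains, 52.6% in MH63 and 66.3% in ZS97 went to other chromosomes, against 41.4% in Dongjin.

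The best-connected anchors were broad domains in all 3 lists. In MH63 the leading hub was chr12:17589452-17727760, 138 kb wide and 70.6% along its chromosome, with 293 partners, 101 of them on other chromosomes. It was followed by chr11:26114830-26190430 with 228 partners and chr2:17000982-17178879 with 214. Then came chr1:4976163-5064955 with 195 partners and chr7:1744323-1860236 with 176. These MH63 hubs sent 34.5% to 48.7% of their loops to other chromosomes.

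In ZS97 the leading hub was chr7:1769107-1865129, with 170 partners, 105 of them on other chromosomes. It was followed by chr5:6152283-6250508 with 155 partners, chr10:2357574-2463662 with 150, chr11:18904375-18974781 with 145 and chr1:4979379-5063876 with 139. The chromosome 7 and chromosome 1 hubs overlap those of MH63, whose list is in the same coordinates. Interchromosomal loops were 46.2% to 72.9% of the loops of the 5 ZS97 hubs.

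In Dongjin the leading hub was chr12:19287756-19424123, 136 kb wide and 70.4% along its chromosome, with 232 partners, 56 of them on other chromosomes. It was followed by chr11:25803300-25900199 with 195 partners, chr11:18530786-18627588 with 194, chr2:17161342-17319615 with 158 and chr3:26959985-27036868 with 152. Between 20% and 42.1% of their loops went to other chromosomes. Several hubs of the subspecies lay at like relative positions. The chromosome 2 hub was at 49.4% of the length in MH63 and 48.1% in Dongjin, 178 and 158 kb wide. The chromosome 11 hub of ZS97 was at 62.5% and one of the Dongjin hubs at 64.0%. Likeness of relative position does not show that the domains are the same locus.

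The strongest loops over 1 Mb also joined such domains. In MH63 they were chr11:24443479-24533022 with chr11:26114830-26190430, joined by 428 PETs over 1.66 Mb, and the chromosome 12 hub with chr12:18777799-18842767 (376 PETs, 1.15 Mb) and with chr12:23000682-23046487 (350 PETs, 5.36 Mb). In ZS97 the 3 strongest all ended at chr11:26117306-26187324. Its partners there were chr11:18904375-18974781 (260 PETs, 7.21 Mb away), chr11:19115923-19181190 (254 PETs) and chr11:18829603-18895928 (244 PETs).

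In Dongjin the strongest was unlike the others: chr12:10856624-10859508, 2.89 kb wide, was joined to chr12:23980213-23985729, 5.52 kb wide, by 738 PETs over 13.1 Mb. Second came chr11:18530786-18627588 with chr11:25803300-25900199, joined by 450 PETs over 7.27 Mb. In relative terms that loop ran from 64.0% to 89.1% of chromosome 11, and the leading ZS97 loop, of 7.21 Mb, ran from 62.5% to 86.3%. The last was chr5:6371595-6491093 with chr5:7798315-7840276, joined by 259 PETs over 1.39 Mb.

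Between chromosomes, the strongest MH63 loop had 125 PETs and joined chr11:21496769-21509734 with chr6:23054215-23102450. The next MH63 loops joined chr11:26226959-26244964 with the chromosome 12 hub (74 PETs) and chr5:9935378-9937391 with chr8:18638407-18663226 (60 PETs). In ZS97 chr4:12179074-12181699 and chr8:16857964-16866602 had 343 PETs, chr3:21238973-21242638 and chr8:4822803-4840537 had 306, and chr5:7248274-7249883 and chr8:7105333-7113860 had 164. All 3 ZS97 loops ended on chromosome 8. In Dongjin the domain chr11:18530786-18627588 was joined to neighbouring anchors chr5:27989863-27997373 (309 PETs) and chr5:27998772-28004686 (113 PETs). The remaining Dongjin loop joined chr11:18635292-18655292 with chr6:25448014-25448974 by 106 PETs.

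Counted per chromosome, loops within chromosomes were fewer per Mb in both indica seedling lists on 12 of 12 chromosomes. Whole lists were offset alike, with 38295 and 25494 such loops over 359 Mb in MH63 and ZS97, against 49522 over 372 Mb in Dongjin. By chromosome, the ratio to Dongjin ran from 0.718 to 0.984 in MH63 and from 0.420 to 0.655 in ZS97. Loops to other chromosomes were more numerous per Mb on 12 of 12, with ratios of 1.05 to 1.17 in MH63 and 1.37 to 1.57 in ZS97. Both counts depended on the number of PETs in a list and on the PETs required per loop. Thinned to equal PETs, both indica lists had fewer loops within the chromosome on 4 of 12, chromosomes 3, 5, 9 and 11, where MH63 set the number and ZS97 was lower on 12. Among loops of at least 3 PETs, both indica lists had more loops to other chromosomes on 1 of 12, chromosome 8, again with ZS97 higher on 12.

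The order of the chromosomes was alike in part. Chromosome 11 was the densest in MH63, with 150 loops per Mb within it (146 to 155), and in Dongjin, with 203 (198 to 208). In ZS97 chromosome 1 led with 93.4 and chromosome 11 followed with 91.9, within counting error of each other. In MH63 chromosome 12 came second with 133 loops per Mb, and in Dongjin chromosome 1 did with 152, within counting error of chromosome 9. Chromosome 4 was the sparsest in each list, with 77.4 in MH63 and 52.2 in ZS97, against 105 in Dongjin. Next lowest was chromosome 5 in MH63, with 82.0, chromosome 10 in ZS97, with 55.0, and chromosome 5 in Dongjin, with 111.

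Relative to the mean density of its own list, chromosome 8 was 1.23-fold above Dongjin in both indica lists, and chromosome 9 was 0.895-fold in MH63 and 0.790-fold in ZS97. Chromosome 12 did not follow the subspecies, at 1.12-fold in MH63 and 0.786-fold in ZS97. The relative density was above Dongjin in both indica lists on 4 chromosomes and below in both on 4. Across the 12 chromosomes, loops per Mb had a Pearson r of 0.68 between MH63 and ZS97, 0.87 between MH63 and Dongjin and 0.68 between ZS97 and Dongjin, as a description. The spread of loops per Mb over the chromosomes, as a coefficient of variation, was 20.3% in MH63 and 19.01% in ZS97, against 20.4% in Dongjin, within the counting error of 1.07, 1.30 and 1.04 percentage points.

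**Figure D3:**
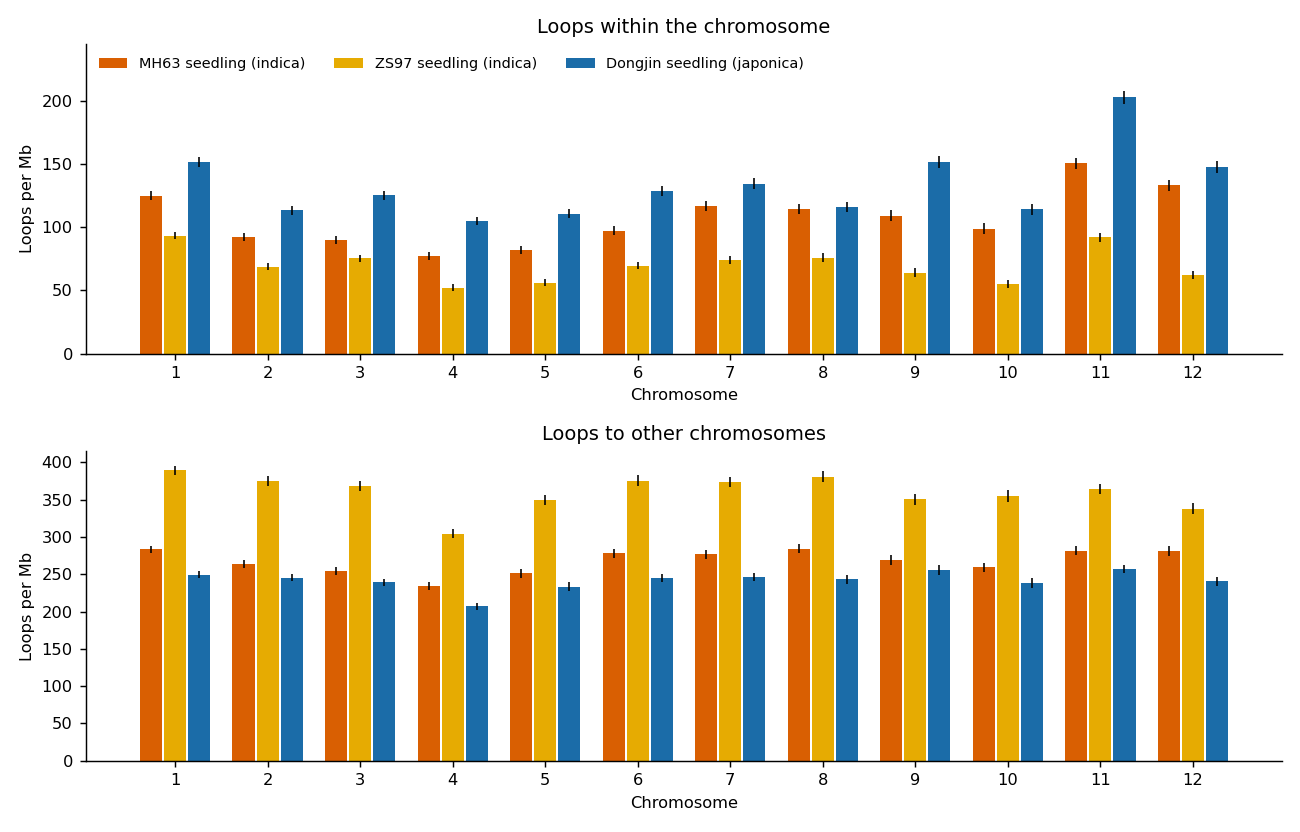
Loops per Mb for each of the 12 chromosomes in MH63, ZS97 and Dongjin seedlings, within the chromosome (top) and to other chromosomes (bottom), with 95% Poisson intervals. Within chromosomes Dongjin is highest on all 12, up to 203 on chromosome 11, and to other chromosomes it is lowest on all 12.

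Contacts between chromosome pairs were close to what the number of loop ends on each chromosome gives. The 66 pairs had observed over expected ratios of 0.908 to 1.08 in MH63, 0.943 to 1.09 in ZS97 and 0.887 to 1.08 in Dongjin. The SD of the log2 ratios was 0.05 in MH63, 0.04 in ZS97 and 0.05 in Dongjin, and counting error alone gives 0.06, 0.05 and 0.06. A pair was counted as off expectation when its 95% Poisson interval left out a ratio of 1. That held for 2 of 66 pairs in MH63 (3.03%), 3 in ZS97 (4.55%) and 2 in Dongjin (3.03%). Intervals at 95% leave out 5% by construction, and none of these shares exceeded that.

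In MH63 the lowest pairs were chromosomes 1 and 11, 2 and 9, and 2 and 12, with ratios of 0.908, 0.921 and 0.934, and the highest were 4 and 6, 11 and 12, and 8 and 12, with 1.08, 1.07 and 1.07. In ZS97 the lowest were 1 and 5, 9 and 10, and 2 and 4 (0.943, 0.943 and 0.949), and the highest 3 and 4, 10 and 11, and 10 and 12 (1.09, 1.08 and 1.06). In Dongjin the lowest were 2 and 10, 7 and 10, and 3 and 12 (0.887, 0.943 and 0.948), and the highest 3 and 4, 10 and 12, and 7 and 12 (1.08, 1.07 and 1.07). The pair of chromosomes 3 and 4 was off expectation in ZS97 (1.03 to 1.16) and in Dongjin (1.00 to 1.15).

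The pair that differed most between the subspecies was 2 and 10, with 1.05 in MH63 (0.974 to 1.14) and 0.986 in ZS97 (0.923 to 1.05), against 0.887 in Dongjin (0.812 to 0.966), so only the MH63 interval was apart from that of Dongjin. The next were 2 and 7, 7 and 10, 9 and 10, and 6 and 10, where the mean log2 ratio of the indica lists differed from Dongjin by 0.10 to 0.12 in size. For those pairs the intervals of all 3 lists overlapped. Across the 66 pairs the log2 ratios had a Pearson r of −0.10 between MH63 and ZS97, −0.20 between MH63 and Dongjin and 0.34 between ZS97 and Dongjin. The spread of the ratios was no larger than counting error gives, so these correlations cannot show which lists are more alike. Among loops of at least 10 PETs, 2 pairs were off expectation in MH63 (3.03%), 4 in ZS97 (6.06%) and 1 in Dongjin (1.52%), on 0 to 19, 8 to 45 and 4 to 27 loops per pair.

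**Figure D4:**
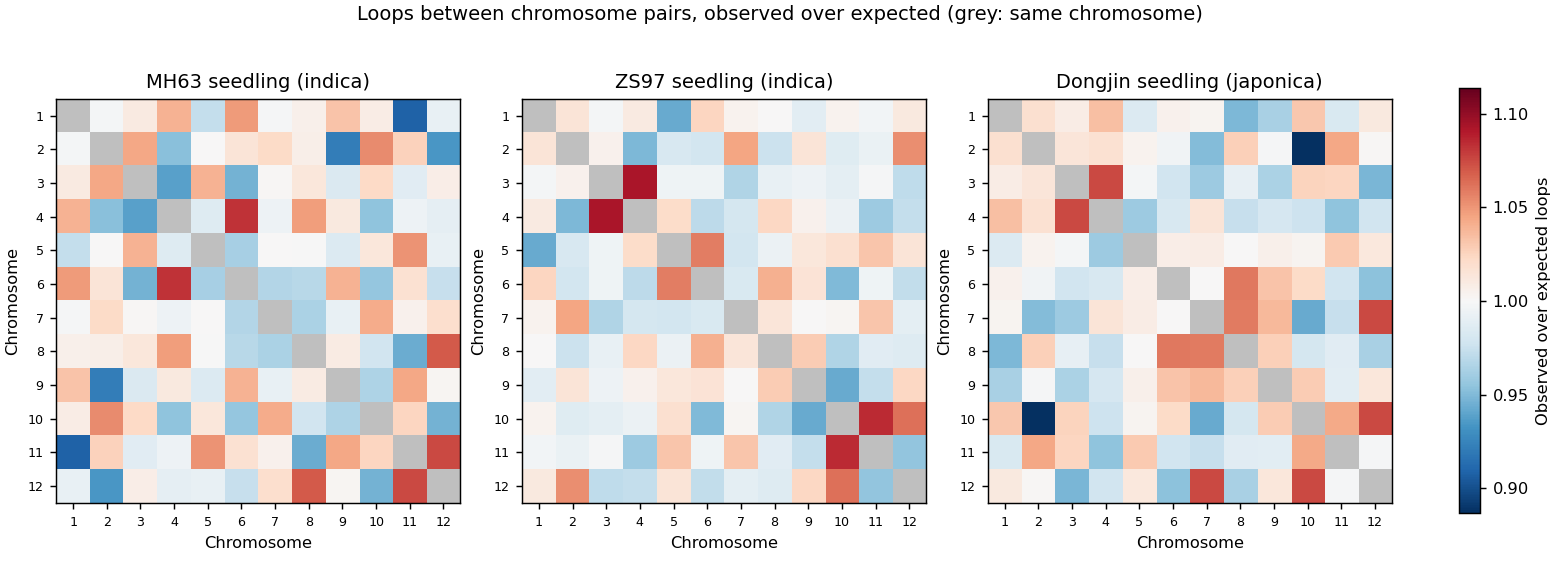
Observed over expected loops (colour) for each of the 66 pairs of chromosomes in MH63, ZS97 and Dongjin seedlings, with grey for the same chromosome. Ratios stay between 0.887 and 1.09, and the pair of chromosomes 2 and 10 is red in MH63, near white in ZS97 and the deepest blue in the Dongjin panel.

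Along the chromosomes, anchors were sparsest at 40 to 45% of the length in each list. That twentieth held 2.53% of anchors in MH63 and 2.31% in ZS97, against 3.24% in Dongjin, or 16.9, 12.6 and 18.1 anchors per Mb. From 50 to 55% of the length the shares were 3.33% in MH63 and 3.10% in ZS97, against 4.56% in Dongjin, so the sparse stretch reached farther along in the indica lists. Anchor density over the 240 twentieths of all chromosomes had a Pearson r of 0.94 between MH63 and ZS97, 0.79 between MH63 and Dongjin and 0.73 between ZS97 and Dongjin. MH63 and ZS97 share a coordinate system, and Dongjin was set against them by percent of length only.

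The outer 10% at both ends of the chromosomes held 22.8% of anchors in MH63 (22.1 to 23.6) and 24.7% in ZS97 (23.8 to 25.5), against 21.5% in Dongjin (20.7 to 22.3). The MH63 and Dongjin intervals overlap, and roots of MH63 and ZS97 had 21.1% and 21.9%. Loops between ends of different chromosomes exceeded their expectation by log2 0.05 ± 0.05 in MH63 and 0.06 ± 0.04 in ZS97, against 0.10 ± 0.05 in Dongjin (± 95% half-width), and the 3 intervals overlap. The interchromosomal share of loop ends followed the lists at each position, with ZS97 on top and Dongjin lowest.

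**Figure D5:**
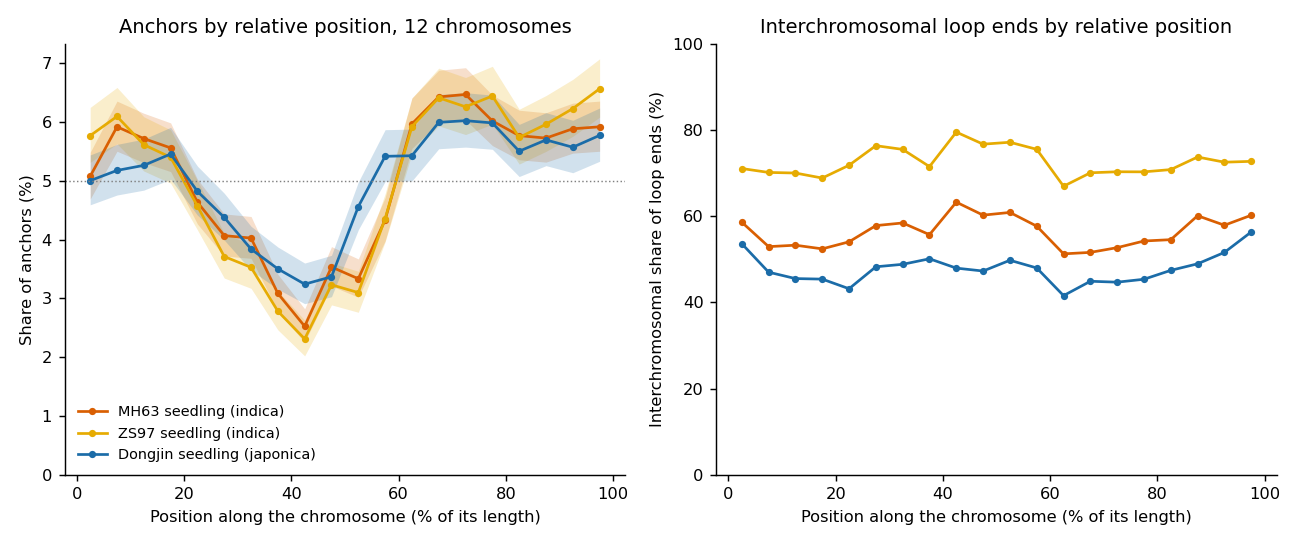
Left, share of anchors (%) in each twentieth of the chromosome length, 12 chromosomes together, for MH63, ZS97 and Dongjin seedlings, with shaded 95% intervals and a dotted line at an even share of 5%. Right, share of loop ends (%) that go to other chromosomes at the same positions: all lists dip to the left at 40 to 45% of the length (2.53%, 2.31% and 3.24%), and on the right the ZS97 curve lies above MH63 and MH63 above Dongjin.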

How the data were processed

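H3K27me3 ChIA-PET loop lists of MH63, ZS97 and Dongjin seedlings were compared, with 2 replicates pooled in each list. Formaldehyde (1%, 10 min) and EGS (1.5 mM, 30 min) fixed the tissue, and ligation used a bridge linker before 150 bp paired-end sequencing, per the labels' protocols. The authors deposited whole-number counts of PETs per loop and of tags per anchor, without normalisation. They also deposited the distance of both anchors, a p-value and an FDR per loop. In the authors' deposited table no FDR exceeded 0.0499, and the highest p-value was 0.00706 in MH63, 0.00301 in ZS97 and 0.00428 in Dongjin. A pair of 2 PETs passes only below a limit on tags, 1654, 2019 and 1940 tags per anchor in MH63, ZS97 and Dongjin for anchors with equal tags. Which aligner, build and caller made the lists is not given in the sources used here, and no annotation of either build was used. Pairs absent from a list fell under the authors' thresholds.

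Anchors were taken as distinct intervals, spans between their middles, and chromosome lengths as the farthest anchor end in any list of the same coordinates. Loops to unplaced sequence were left out. Slopes were least-squares fits over bins of 0.1 log10 units. Expected loops of a chromosome pair came from the loop ends per chromosome, fitted with no loops on the diagonal. Thinning kept a loop with its probability of still having 2 PETs, so its values are expectations. The authors' p-values and FDRs were not computed anew for the thinned PETs. Poisson intervals were used for loop numbers, Clopper-Pearson for shares, order statistics for medians and the delta method for slopes and spreads. They cover counting error only and treat loops and PETs as independent counts. PETs without molecular identifiers are not independent molecules, and loops share anchors, so the intervals may be too narrow. Python 3.11.15, NumPy 2.4.6, pandas 2.3.3, SciPy 1.17.1 and matplotlib 3.10.9 were used, and the scripts were checked on simulated data. Items named were the 5 anchors with most partners, the 3 strongest loops over 1 Mb and between chromosomes, the 2 densest and 2 sparsest chromosomes and the 3 highest and lowest chromosome pairs of each list, and the 5 pairs that differed most. The samples, measures and lists were chosen with earlier results of these data known. Loops per 1000 anchor pairs, closed triples and counts of chromosomes, the use of the 5000 anchors with most tags, and joining at 977 bp were added after the data were seen.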

Additional observations from a re-analysis of the deposited data

How the results depend on the processing

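No paired analysis was possible because each list pools both replicates, and for the same reason no replicate could be left out. Values are indica mean against Dongjin, as differences in percentage points for shares and as ratios for medians and means. The interchromosomal share was 16.2 points higher as listed, and 16.6 with at least 3 PETs, 25.2 thinned to equal PETs, 17.4 by PETs, 16.6 among the 5000 anchors with most tags and 18.3 with anchors under 977 bp apart joined. In the same order of settings, the median span ratio of 0.764 became 0.655, 0.872, 0.794, 0.684 and 0.908, and 0.733 at a common highest p-value. The share over 1 Mb, 4.28 points higher, became 0.973, 7.67, 1.49, 1.10 and 6.80 points. The slope difference of −0.242 became −0.260 with at least 3 PETs, −0.212 thinned and −0.197 joined, and reversed to 0.334 between 1 Mb and 10 Mb. That result uses other spans by construction. The anchor width ratio of 0.694 became 0.721 with at least 3 PETs, 0.667 thinned and 0.740 joined. Partners per anchor, at a ratio of 0.905, became 0.793 with at least 3 PETs, 1.37 thinned, 0.878 among the 5000 anchors and 0.962 joined, so its direction changed when PETs were thinned. The spread of loops per Mb, −0.770 points and within counting error, became −2.51 thinned, 3.56 without chromosomes 11 and 12, with the opposite sign, and 0.783 for ends of interchromosomal loops. Over the outer 5%, the excess of anchors near ends was 0.888 points in place of 2.20, and end-to-end contacts −0.16 in place of −0.05 on the log2 scale. Within chromosomes, the ratio of loops per anchor pair, 0.575, became 0.598, 0.721, 0.626 and 0.633 with at least 3 PETs, thinned, among the 5000 anchors and joined. Between chromosomes, 1.22 became 1.26, 2.24, 1.196 and 1.47, and 1.35 at a common highest p-value. Closed triples, −7.38 points, became −6.39, −8.09, −6.62 and −8.30 points. The count of chromosomes with fewer loops within them in both indica lists dropped to 4 of 12 when thinned, and that with more loops to other chromosomes to 1 of 12 with at least 3 PETs. Of the alternatives, 22 moved a value by at most counting error, or 1.5-fold for counts of chromosomes. A further 46 moved it by more, and 1 was counted as a reversal. Reversal was counted only for results where both indica lists, as listed, lay on the same side of Dongjin beyond counting error. The changes of direction in partners per anchor and in the spread of loops per Mb are therefore among the 46. In the seedling lists, loops of 2 PETs were 60.9% to 69.4% of those between chromosomes and 26.8% to 35.2% of those within. Their part in these changes was not tested.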

Other observations

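The longest stretch without an anchor lay at like relative positions on several chromosomes. On chromosome 9 its middle was at 11.7% of the length in MH63 and 11.9% in ZS97, against 12.5% in Dongjin. On chromosome 3 it was at 54.2% in MH63 and 54.1% in ZS97, against 54.0% in Dongjin, and on chromosome 10 at 35.6% in both indica lists, against 35.7% in Dongjin. The stretches on chromosome 3 were 1202 kb long in MH63 and 1118 kb in ZS97, against 804 kb in Dongjin, and those on chromosome 9 were 775 kb in MH63 and 852 kb in ZS97, against 630 kb in Dongjin. The longest stretch of a chromosome had a median of 568 kb in MH63 and 744 kb in ZS97, against 682 kb in Dongjin. On chromosome 11 its place differed, at 42.3% of the length in MH63 and 91.9% in ZS97, against 42.8% in Dongjin.

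Opposite ends of 1 chromosome were joined by 176 loops in MH63 and 207 in ZS97, against 171 in Dongjin. Set against all anchor pairs over 10 Mb apart, this was 1.19-fold the expected number in MH63 (1.02 to 1.38) and 1.05-fold in ZS97 (0.910 to 1.201), against 1.26-fold in Dongjin (1.08 to 1.46), with overlapping intervals. Loops to unplaced sequence numbered 28 in MH63 and 21 in ZS97, against 0 in Dongjin.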
